A study of Mus musculus with 24 samples.

Results

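The genes described here are 10 members of the machinery that marks muscle proteins for breakdown: the ubiquitin ligase genes Fbxo32, Trim63, Fbxo30, Fbxo31, Fbxo21, Fbxo40 and Cblb, and the transcription factor genes Foxo1, Foxo3 and Klf15. They were taken by symbol from the 19938 mouse genes that a single-gene probe set reads on an Affymetrix array, and all 10 were present and bright enough to be tested. RNA came from 4 groups of 6 samples of male mice aged 40 to 42 days, on a background that mixes C57BL/6J with 1219S6/SvEvTac (spelled as in the labels): nebulin knockout (cKO) quadriceps, control quadriceps, cKO soleus and control soleus. Every mouse, controls included, carried 2 copies of a conditional nebulin (Neb) allele. The cKO mice were hemizygous for MCK-Cre as well, a recombinase driven by the muscle creatine kinase promoter, and the controls lacked it. That promoter acts in muscle fibres, so other cells of the muscle keep an intact allele, and the arrays read whole muscle, in which fewer cells of a type and less RNA per cell cannot be told apart. The submitters describe the quadriceps as markedly smaller in cKO and the soleus as not significantly smaller.

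Muscle wasting is known to run largely through the ubiquitin and proteasome system, in which a ligase picks the protein to be tagged and the proteasome degrades it. F-box proteins such as those of the Fbxo genes are the substrate-picking subunits of cullin ligases, whereas Trim63 and Cblb are RING ligases that bind their substrates themselves. Foxo1 and Foxo3 are kept out of the nucleus when insulin or IGF signalling activates the kinase Akt, and when that signal falls they switch on ligase genes such as Fbxo32 and Trim63. Klf15 is a zinc finger factor induced by glucocorticoids that acts on muscle amino acid breakdown. Higher levels of Fbxo32 and Trim63 are the usual marks of muscle loss after fasting, denervation or unloading.

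The measure is a probe set's log2 intensity, which allows a gene to be compared between samples but not with another gene. A change was called when its adjusted p from limma, fitted over all 15999 genes bright enough to be tested, lay under 0.05. The targeted gene Neb was 2.73-fold lower in cKO than in control quadriceps and 2.20-fold lower in cKO than in control soleus, with no overlap between the groups, although the sources used here do not say whether its probes lie in the deleted part. Muscle fibre genes (Acta1, Ckm, Des, Mb and Ttn) were above the dim limit in every group, and their summed linear intensity lay between 26320 and 33710. The lowest array quality weights were those of 3 control arrays, 0.21 for quadriceps control 4, 0.39 for quadriceps control 6 and 0.39 for soleus control 1. No pair of the 24 arrays held identical values.

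In the quadriceps, the muscle described as smaller, the best known wasting ligases Fbxo32 and Trim63 did not pass the test in cKO, while Fbxo30 rose 2.16-fold, Foxo1 rose 2.01-fold and Fbxo31 fell 2.54-fold. Of the 10 members 4 rose in cKO (Fbxo30, Foxo1, Foxo3 and Cblb), 1 fell (Fbxo31) and 5 did not pass. Over all genes tested in this comparison 40.0% were called, 22.3% higher and 17.7% lower, and 5 of 10 lies close to that background. The median log2 change of the members was 0.12, against -0.01 over all genes. Fbxo30 and Fbxo31 were the members whose 6 cKO arrays lay wholly beyond the 6 control arrays, a separation that 16.2% of all tested genes showed in either direction.

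**Figure D1:**
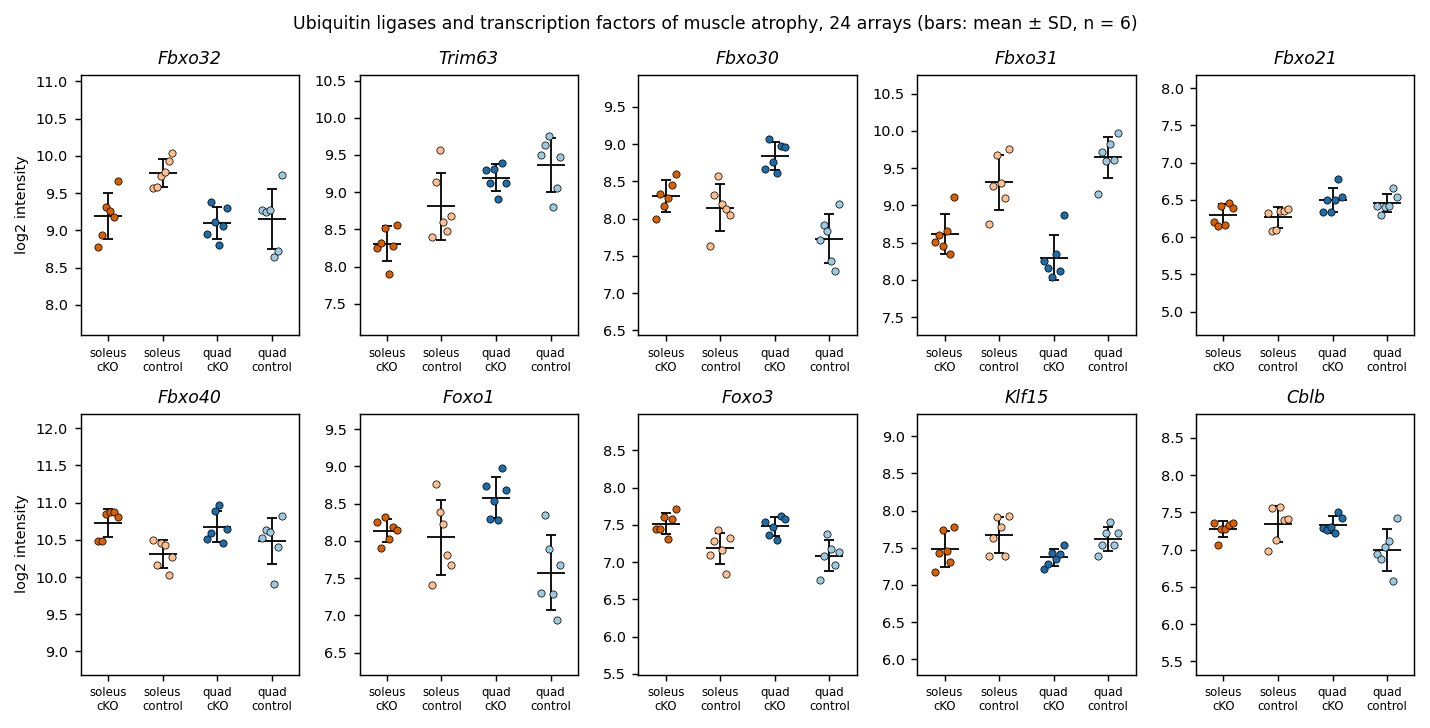
Log2 intensity of the 10 genes (y axis, the same span of log2 units in each panel) on the 6 arrays of each group (x axis: soleus cKO, soleus control, quadriceps cKO, quadriceps control), with the mean and SD of 6 arrays as bars. Fbxo30 and Fbxo31 separate cKO from control quadriceps completely, with every cKO array at or above 8.61 for Fbxo30 and at or below 8.87 for Fbxo31.

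Foxo1 was read at 8.28, 8.61 and 8.97 (lowest, median and highest log2 intensity of 6 arrays) in cKO quadriceps, against 6.94, 7.49 and 8.35 in control quadriceps. The groups overlapped through 1 high control array, quadriceps control 2, and the change was 2.01-fold (log2 1.01, SE 0.20, limma adjusted p = 0.00025). Its partner Foxo3, the factor best known for switching on Fbxo32, lay at 7.30, 7.51 and 7.62 in cKO and at 6.76, 7.11 and 7.38 in control quadriceps. Foxo3 was thus 1.31-fold higher (log2 0.39, SE 0.10, adjusted p = 0.00264), with some overlap between the groups. Klf15 ran the other way, at 7.22, 7.39 and 7.54 in cKO quadriceps and at 7.39, 7.62 and 7.84 in control quadriceps. The Klf15 difference of -0.25 (SE 0.11, 95% interval -0.47 to -0.02) did not pass after adjustment (adjusted p = 0.0744), although it did after scaling to the 75th percentile (-0.33, adjusted p = 0.0183) or by quantiles (-0.31, 0.0292), with the quadriceps arrays fitted alone (0.0442), and without quadriceps control 1 (-0.29, 0.0449).

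Fbxo32, the F-box ligase also called MAFbx, whose reported substrates include Myod1 and the translation factor subunit Eif3f, lay at 8.80, 9.09 and 9.38 in cKO quadriceps and at 8.65, 9.26 and 9.75 in control quadriceps. The cKO arrays fell inside the control range, and the difference was -0.05 (95% interval -0.37 to 0.27, adjusted p = 0.82). Trim63, also called MuRF1, a ligase that sits in the sarcomere and tags thick filament proteins, lay at 8.90, 9.21 and 9.39 in cKO and at 8.81, 9.49 and 9.76 in control quadriceps. Here too the cKO arrays lay within the control range (difference -0.18, interval -0.53 to 0.17, adjusted p = 0.417). On the same arrays all 7 slow fibre genes rose, and the part of that change in the members' values was not tested.

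Fbxo32 and Trim63 are known FoxO targets, and the letters upstream of the members were read from RefSeq (GRCm38.p6, the assembly named mm10), which gave 10 start-site windows for 9 members, with no entry for Fbxo32. On both strands of the 250 bases before each start, the FoxO core GTAAACA and the steroid receptor motif AGAACA were searched, AGAACA also as a facing pair of AGAACA and TGTTCT with 3 free bases between and up to 3 mismatches in its 12 fixed letters. The FoxO core was found in Trim63 alone among these windows, and 3.17% of all 32851 windows hold it. In Trim63 it lies on the opposite strand at -194 from the start, directly beside a facing pair with 1 mismatch at -209, which holds an exact AGAACA at -200. Fbxo40 held a facing pair with 3 mismatches in each of its 2 windows, against 12.3% of all windows with such a pair of at most 3 mismatches, and one of them an exact AGAACA, which 16.1% of all windows hold. The windows of the other 7 members held none of these motifs. Those of Fbxo30, Klf15 and Cblb lie wholly inside the annotated gene, so the bases before these genes were not searched. The Fbxo40 window with the exact AGAACA also lies inside its gene. The stretches below are those that lie outside the annotated gene of both FoxO factors, of Trim63 and of Fbxo31, the member that fell furthest, written 5′ to 3′ on the strand of the gene with matched motifs in capitals. They lie at chr4:134314870-134315119 (plus strand), chr3:52268087-52268336 (plus strand), chr10:42276696-42276945 (minus strand) and chr8:121578865-121579056 (minus strand).
Trim63 upstream stretch: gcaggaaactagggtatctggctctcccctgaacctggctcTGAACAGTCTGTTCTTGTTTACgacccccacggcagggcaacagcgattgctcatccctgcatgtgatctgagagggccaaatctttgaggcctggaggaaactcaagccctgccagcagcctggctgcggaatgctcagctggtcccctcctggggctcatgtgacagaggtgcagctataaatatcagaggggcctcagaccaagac
Foxo1 upstream stretch: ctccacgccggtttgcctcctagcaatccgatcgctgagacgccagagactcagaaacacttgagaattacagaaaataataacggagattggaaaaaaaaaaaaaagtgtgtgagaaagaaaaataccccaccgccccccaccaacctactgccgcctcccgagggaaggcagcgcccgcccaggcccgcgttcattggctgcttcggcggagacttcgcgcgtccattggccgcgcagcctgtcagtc
Foxo3 upstream stretch: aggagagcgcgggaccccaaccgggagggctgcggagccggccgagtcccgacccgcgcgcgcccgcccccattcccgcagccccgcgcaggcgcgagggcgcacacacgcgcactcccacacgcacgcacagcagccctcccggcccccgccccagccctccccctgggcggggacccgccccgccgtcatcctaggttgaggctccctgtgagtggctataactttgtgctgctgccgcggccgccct
Fbxo31 upstream stretch: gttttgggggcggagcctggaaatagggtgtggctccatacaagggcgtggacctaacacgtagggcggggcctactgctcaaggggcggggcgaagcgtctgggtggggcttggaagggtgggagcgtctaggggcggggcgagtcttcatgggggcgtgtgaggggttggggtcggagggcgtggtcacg
A match here is a run of letters and no evidence of binding.

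Fbxo30, also called MUSA1 and known as a ligase that BMP signalling holds down and denervation raises, lay at 8.61, 8.86 and 9.07 in cKO quadriceps and at 7.29, 7.77 and 8.20 in control quadriceps. Every cKO array was above every control array, and the change was 2.16-fold (log2 1.11, SE 0.14, adjusted p = 6.69e-07). Fbxo31, an F-box ligase known for degrading the cyclin Ccnd1, lay at 8.04, 8.21 and 8.87 in cKO quadriceps and at 9.16, 9.66 and 9.97 in control quadriceps. It was 2.54-fold lower (log2 -1.35, SE 0.16, adjusted p = 2.09e-07), again with no overlap. A second Fbxo31 probe set, dimmer on average and not used in the counts, gave -1.02 (SE 0.14, adjusted p = 1.4e-06) in quadriceps. Fbxo31 lies on chromosome 8 at 121549443 to 121578864 and Fbxo30 on chromosome 10 at 11281330 to 11305750 (GRCm38.p6), and where in these genes the probes sit is not given in the sources used here.

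Cblb, a RING ligase known to tag the insulin receptor substrate Irs1 in unloaded muscle, lay at 7.22, 7.29 and 7.51 in cKO and at 6.58, 6.99 and 7.43 in control quadriceps. It rose 1.26-fold (log2 0.34, SE 0.11, adjusted p = 0.0172), with the highest control array, quadriceps control 6, inside the cKO range. This call was lost without quadriceps control 5 (0.25, adjusted p = 0.0594) and after scaling to the 75th percentile (0.26, 0.0558) or by quantiles (0.26, 0.0598), and without the 3 arrays of lowest weight the change was 0.48. Fbxo40, a muscle F-box gene that also targets Irs1, lay at 10.45, 10.62 and 10.97 in cKO and at 9.91, 10.57 and 10.82 in control quadriceps, a difference of 0.19 (adjusted p = 0.216) between overlapping groups. Fbxo21, also called SMART, was the flattest member, with all 24 arrays between 6.08 and 6.78 and differences of 0.04 in quadriceps and 0.03 in soleus (95% intervals -0.13 to 0.22 and -0.14 to 0.21).

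In the soleus, the muscle described as not significantly smaller, Fbxo32, Trim63 and Fbxo31 fell in cKO, Fbxo40 and Foxo3 rose, and Fbxo30 and Foxo1 did not pass. That is 2 members higher and 3 lower of 10, where 23.1% of all tested genes were called, 13.2% higher and 9.94% lower. The median log2 change of the members was -0.02, equal to the -0.02 over all genes. No member had its 6 cKO soleus arrays wholly beyond the 6 controls, as 12.8% of all genes did.

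Fbxo32 lay at 8.78, 9.22 and 9.67 in cKO soleus and at 9.56, 9.76 and 10.04 in control soleus. Only the highest cKO array, soleus cKO 6, reached into the control range, and Fbxo32 was lower by a log2 difference of -0.58 (SE 0.15, adjusted p = 0.00625). On the same arrays endothelial markers fell in 4 of 5, and the part of that change in the Fbxo32 value was not tested. Trim63 lay at 7.90, 8.30 and 8.56 in cKO and at 8.39, 8.64 and 9.56 in control soleus, 1.42-fold lower (-0.50, SE 0.17, adjusted p = 0.0314). The Trim63 call was lost with arrays centred on their medians (adjusted p = 0.0536) and without soleus control 2 (0.0839), soleus control 3 (0.107), soleus cKO 1 (0.0557), soleus cKO 4 (0.0864) or soleus cKO 5 (0.053), with changes of -0.35 to -0.50. Without the 3 arrays of lowest weight it was -0.58 (adjusted p = 0.00747).

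Fbxo31 lay at 8.35, 8.55 and 9.11 in cKO soleus and at 8.75, 9.28 and 9.75 in control soleus, 1.62-fold lower (log2 -0.69, SE 0.16, adjusted p = 0.00196). Its second probe set read -0.30 in soleus and did not pass (adjusted p = 0.114). Fbxo40 rose 1.34-fold (log2 0.42, SE 0.12, adjusted p = 0.0133), with cKO arrays at 10.49, 10.83 and 10.88 and control arrays at 10.02, 10.35 and 10.50, which meet at their edges. Foxo3 lay at 7.32, 7.51 and 7.72 in cKO and at 6.84, 7.22 and 7.43 in control soleus, 1.26-fold higher (0.33, SE 0.10, adjusted p = 0.0159), a call lost without soleus control 5 (0.26, adjusted p = 0.0559). Foxo3 and Fbxo31 were therefore the members called in the same direction in both muscles, upward for Foxo3 and downward for Fbxo31.

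Foxo1 in the soleus lay at 7.90, 8.17 and 8.32 in cKO and at 7.41, 8.02 and 8.77 in control, a difference of 0.09 (95% interval -0.32 to 0.50). The cKO arrays sat in the middle of a wide control range. Fbxo30 averaged 8.30 ± 0.21 in cKO and 8.15 ± 0.31 in control soleus (SD, n = 6 each; difference 0.16, interval -0.14 to 0.45). Klf15 (-0.19, interval -0.41 to 0.03) and Cblb (-0.07, interval -0.30 to 0.16) did not pass either, and Klf15 passed in 1 alternative, with array quality weights (-0.25, adjusted p = 0.0496).

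**Figure D2:**
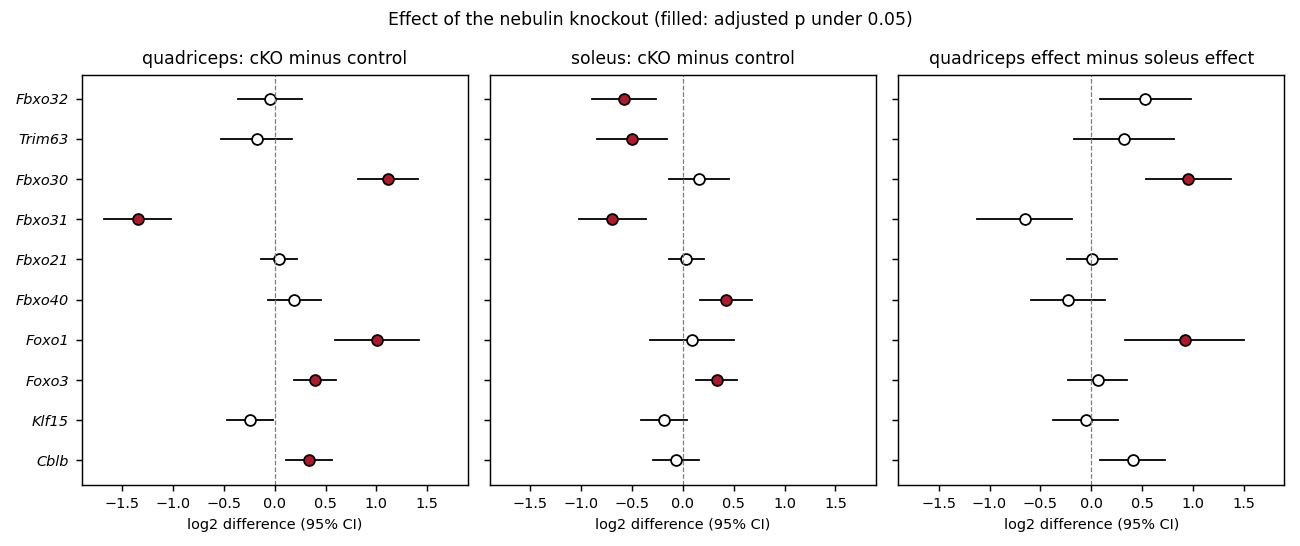
Log2 difference with its 95% interval (x axis) for each of the 10 genes (rows), as cKO minus control in quadriceps (left) and in soleus (middle) and as the quadriceps effect minus the soleus effect (right); filled points have an adjusted p under 0.05. Fbxo30 (0.96) and Foxo1 (0.92) are the filled points of the right panel.

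Whether a member answered the knockout differently in the 2 muscles was tested as the difference of the changes, for which 12.3% of all genes were called, 7.39% with the higher and 4.89% with the lower change in quadriceps. Fbxo30 passed (0.96, SE 0.20, adjusted p = 0.00251), and so did Foxo1 (0.92, SE 0.28, adjusted p = 0.0332), both with the higher change in quadriceps. Fbxo30 held its call under the 12 other settings and with each of the 24 arrays left out in turn (values 0.87 to 1.10). Foxo1 held it under the 12 other settings but lost it when any of 9 single arrays was left out: quadriceps control 1, 4 or 5, quadriceps cKO 1 or 5, soleus control 2, 3 or 4, or soleus cKO 2 (0.77 to 0.89, adjusted p = 0.0518 to 0.0665).

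Fbxo31 fell by 0.65 more in quadriceps than in soleus, which narrowly missed the threshold (SE 0.23, adjusted p = 0.0584). Same-numbered quadriceps and soleus arrays of a genotype deviated together, and the blocked fits assume that each such pair is 1 animal. With these pairs in a random block the Fbxo31 difference passed (adjusted p = 0.0177), as did that of Cblb (0.41, adjusted p = 0.0455, against 0.0893 without the block). With the number as a fixed term Fbxo31 (0.00428) and Fbxo32 (0.53, 0.0426, against 0.109) passed. The second Fbxo31 probe set passed without any block (-0.71, adjusted p = 0.0158), whereas without the 3 arrays of lowest weight the difference of the main probe set was -0.42 (adjusted p = 0.184) and that of Cblb passed at 0.62 (adjusted p = 0.00147). For Trim63, Fbxo40, Foxo3, Klf15 and Fbxo21 the difference ran from -0.23 to 0.32 and did not pass, with 95% intervals that reach from -0.59 to 0.82.

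In control mice 4 of the 10 members were called between soleus and quadriceps and 6 did not pass, near the share called among all genes. Fbxo32 was 1.54-fold higher in control soleus than in control quadriceps (log2 0.62, SE 0.15, adjusted p = 0.0027), while Trim63 was 1.48-fold lower (-0.56, SE 0.17, adjusted p = 0.0116). Fbxo30 (0.42, adjusted p = 0.0249) and Cblb (0.35, adjusted p = 0.0168) were also higher in control soleus. Thus 3 members were higher and 1 lower in control soleus, with 33.5% of all genes called, 15.2% higher and 18.3% lower. All 10 members overlapped between the control muscles, while 11.7% of all genes did not. With animals as a random block 7 members passed, Foxo1 (0.47, adjusted p = 0.0287, against 0.0695) being higher and Fbxo31 (-0.34, 0.0469, against 0.105) and Fbxo21 (-0.19, 0.0437, against 0.085) lower in soleus. The Fbxo30 call was lost with arrays centred on their medians (0.31, adjusted p = 0.113) and without quadriceps control 4 (0.36), quadriceps control 5 (0.33), soleus control 2 (0.38) or soleus control 3 (0.33), and the Cblb call with that centring (0.24, adjusted p = 0.103) and without quadriceps control 5 (0.26). Without the 3 arrays of lowest weight the Cblb value was 0.56. That centring moved the median difference of all genes to -0.07, against 0.03 with values as deposited.

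In cKO mice Fbxo30 was lower in cKO soleus than in cKO quadriceps (log2 -0.54, SE 0.14, adjusted p = 0.00651), the opposite side from the controls, and Trim63 was lower in soleus as in the controls, here 1.85-fold (-0.89, SE 0.17, adjusted p = 0.00038). In both genes every cKO soleus array lay below every cKO quadriceps array, and 15.9% of all genes were so separated in either direction. These 2 were the members called of 10, against 28.8% of all genes, 11.9% higher and 16.9% lower, and with animals as a random block Foxo1 (-0.44, adjusted p = 0.0437, against 0.0956) and Fbxo21 (-0.20, 0.0398, against 0.0796) passed as well. Fbxo32, which differed between control muscles, lay at 9.19 ± 0.31 in cKO soleus and 9.10 ± 0.22 in cKO quadriceps (SD, n = 6 each), a difference of 0.09 (interval -0.23 to 0.40).

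For Trim63 the order of the group means ran from soleus cKO (8.31 ± 0.24) through soleus control (8.81 ± 0.45) and quadriceps cKO (9.19 ± 0.18) to quadriceps control (9.37 ± 0.36), where quadriceps cKO and quadriceps control did not differ beyond their spread (SD, n = 6 each), and soleus control and quadriceps cKO were not compared by a test. For Foxo1 quadriceps control was lowest (7.57 ± 0.50), soleus control (8.05 ± 0.50) and soleus cKO (8.14 ± 0.15) were neighbours that did not differ beyond their spread, and quadriceps cKO was highest (8.58 ± 0.27). Without a block, neither the control muscles (limma adjusted p = 0.0695) nor the cKO muscles (0.0956) passed the Foxo1 test between them. For Fbxo32 the soleus control group (9.77 ± 0.19) stood above the other 3, whose means lay between 9.10 and 9.19. The Fbxo31 order put quadriceps cKO lowest (8.30 ± 0.30), then soleus cKO (8.61 ± 0.26), soleus control (9.31 ± 0.37) and quadriceps control (9.65 ± 0.28), where neither the cKO muscles (adjusted p = 0.139) nor the control muscles (0.105) passed the test between them.

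Control samples differed among themselves most in Foxo1, which spanned 0.69 log2 units in cKO quadriceps against 1.41 in control quadriceps, and 0.42 in cKO soleus against 1.36 in control soleus. The SD was smaller in cKO than in control for 8 of the 10 members in quadriceps and 7 of 10 in soleus, as it was for 72.2% and 64.8% of all genes. The 6 pairs of members followed within groups were taken as deviations from the group mean over the 12 arrays of a muscle, which gave 12 relations. Foxo1 and Trim63 in quadriceps passed by rank (Spearman rho 0.83, permutation p = 0.00347, adjusted p = 0.0416) but not by Pearson's r of 0.73 (permutation p = 0.023, adjusted p = 0.165). Each measure was adjusted on its own over the 12 relations, without adjustment for the use of both. By Pearson's r no relation passed, here or under the 3 other scalings. Without the 2 arrays farthest from the median of Foxo1 r was 0.70, and within cKO and control arrays alone it was 0.79 and 0.72. In soleus the same pair had r = 0.69 and rho = 0.68 (permutation p = 0.0534 and 0.0448, adjusted p = 0.174 and 0.134).

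None of the other relations passed the adjustment by either measure, the smallest adjusted p being 0.132. Fbxo32 and Trim63 had r = 0.64 in quadriceps (rho 0.37, permutation p = 0.0685 and 0.3) and r = 0.05 in soleus (rho -0.04, permutation p = 0.852 and 0.903). Klf15 and Fbxo32 had r = -0.04 in quadriceps (rho 0.01, permutation p = 0.919 and 0.992) and r = 0.66 in soleus (rho 0.70, permutation p = 0.0275 and 0.0226), which dropped to 0.43 without the 2 farthest arrays. The remaining pairs, Foxo1 with Foxo3, Foxo1 with Fbxo32 and Klf15 with Trim63, had r between -0.28 and 0.57.

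**Figure D3:**
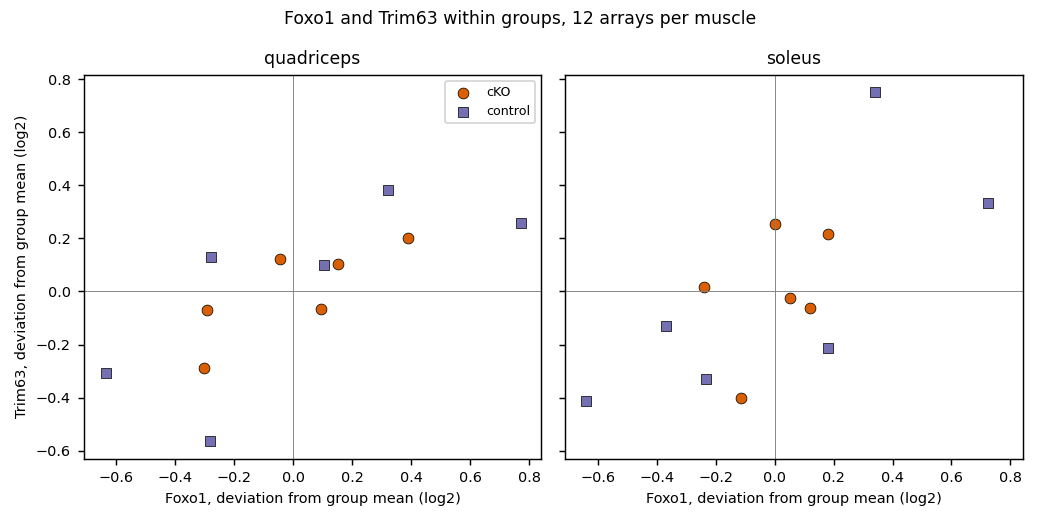
Trim63 (y axis) against Foxo1 (x axis), each as the deviation of its log2 intensity from the mean of its group, for the 12 arrays of quadriceps (left) and of soleus (right), with cKO arrays as circles and control arrays as squares. Spearman rho is 0.83 in quadriceps (adjusted permutation p = 0.0416) and 0.68 in soleus (0.134), and Pearson's r of 0.73 and 0.69 did not pass the adjustment (0.165 and 0.174).

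The other FoxO genes moved against Foxo1 and Foxo3 in cKO quadriceps. Foxo4 fell there (log2 -0.78, SE 0.09, adjusted p = 2.12e-07) and so did Foxo6 (-0.32, adjusted p = 0.0112), while in soleus they were at -0.17 (adjusted p = 0.2) and -0.22 (adjusted p = 0.0992). The Foxo4 change differed between the muscles (-0.61, SE 0.13, adjusted p = 0.00302). Both kept their quadriceps direction and call under the 3 other scalings (Foxo4 -0.79 to -0.87, Foxo6 -0.32 to -0.40). Foxo6 and the other genes named here outside the rule for list genes (Trim55, Zfand5, Irs1, Ccnd1, Eif3f and, in quadriceps, Myod1) were picked after their values were seen.

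Of the FoxO family and target genes, with Foxo4 and Foxo6, 23 of 24 listed genes were measured, of which 5 rose and 5 fell in cKO quadriceps (median 0.03) and 3 rose and 1 fell in cKO soleus (median -0.08), beside medians over all genes of -0.01 and -0.02. Among all genes 40.0% were called in quadriceps and 23.1% in soleus, and the list's shares lie near these. The quadriceps median was -0.05 after scaling to the 75th percentile, where that of all genes was -0.10. The stress sensor Sesn3 rose most in quadriceps (1.84, and 1.05 in soleus), followed by the growth arrest gene Gadd45a (1.62, and 0.69 in soleus), and Sesn1 rose by 0.79 in soleus. In quadriceps Sesn1 was called higher as deposited, and also with arrays centred on their medians (0.34, limma adjusted p = 0.024) and by quantiles (0.31, 0.0467). It did not pass there after scaling to the 75th percentile (0.27, 0.08). Gadd45a and Sesn1 are also p53 targets. The mitochondrial superoxide dismutase Sod2 was lower in both muscles (-0.73 in quadriceps, -0.82 in soleus).

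In quadriceps more RNAs of the insulin and Akt pathway upstream of FoxO were called higher than lower. Of 21 listed genes of the insulin and Akt pathway 20 were measured, 10 rose and 2 fell in cKO quadriceps (median 0.26), where 22.3% of all genes rose, and 4 rose and 3 fell in cKO soleus (median 0.02). The number that rose in quadriceps was 7 or 8 under the 3 other scalings. The growth factor Igf1 (0.69), its receptor Igf1r (0.62), the regulatory subunit Pik3r1 of the lipid kinase PI3K (0.81) and the kinase Akt2 (0.36) were called higher in quadriceps. In soleus Igf1 (0.55) and Igf1r (0.39) rose, while the coactivator Ppargc1a (-1.78), which is known to restrain Foxo3, and the AMPK subunit Prkaa2 (-0.65) fell. On the same arrays 7 of 8 macrophage markers rose in each muscle, and 5 of 6 fibroblast markers in quadriceps and 4 in soleus, and their part in these values was not tested. Pik3r1 stood at -0.05 in soleus, and its change differed between the muscles (0.86, SE 0.18, adjusted p = 0.00249).

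Of 22 glucocorticoid and Klf15 target genes 4 were called higher and 4 lower in cKO quadriceps (median 0.11) and 2 higher and 4 lower in cKO soleus (median 0.13), near the 40.0% and 23.1% called among all genes. The cell cycle inhibitor Cdkn1c rose in both (1.71 and 1.21), and the phosphatidate phosphatase Lpin1 fell in both (-0.82 and -1.19). Arrdc2 fell by 1.13 in quadriceps, and the alanine transaminase Gpt (-0.46) and the glucocorticoid receptor Nr3c1 (-0.37) fell in soleus. Pik3r1 belongs to this list too.

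Of the remaining ligases of muscle more were called lower than higher in quadriceps. Of 24 listed genes 22 were measured, 4 rose and 8 fell in cKO quadriceps (median -0.01), where 17.7% of all genes fell, and 3 rose and 4 fell in cKO soleus (median 0.05). Among those that fell in both muscles these counts include Zfand5 (-0.415 in quadriceps, -0.268 in soleus), which binds ubiquitin and is not a ligase. Under the other scalings 8 to 10 fell in quadriceps and 2 to 5 in soleus. The close relatives of Trim63 fell in quadriceps, Trim54 (MuRF3) by 0.66 (adjusted p = 4.26e-07) and Trim55 (MuRF2) by 0.37 (adjusted p = 0.00113), and kept that under the 3 other scalings. They stood at 0.12 and -0.06 in soleus, and for Trim54 the difference between the muscles passed (-0.77, SE 0.12, adjusted p = 7.2e-05). Wwp1 fell in both muscles (-0.88 and -1.07), as did Asb2 (-0.98 in quadriceps, -0.41 in soleus). The p53 ligase Mdm2 (1.19 in quadriceps, 0.50 in soleus) and Trim32 (0.30 and 0.42) rose in both. In soleus the chaperone ligase Stub1 rose (0.30) and Ubr2 fell by 0.40, and neither passed in quadriceps (0.08 and -0.18).

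Of 16 listed genes of the cullin core and its activation by Nedd8, 15 were measured, and 3 rose and 5 fell in cKO quadriceps (median -0.11), and 3 rose and 1 fell in cKO soleus (median 0.03). Among all genes 22.3% rose and 17.7% fell in quadriceps (median -0.01), and 13.2% rose and 9.94% fell in soleus (median -0.02). The cullin exchange factor Cand1 (0.75) and the Nedd8-activating subunit Uba3 (0.39) rose in quadriceps while Dcun1d1 (-0.50) and the signalosome subunit Cops5 (-0.33) fell. In soleus the muscle form Cand2 (0.60), Nedd8 (0.43) and Cops5 (0.26) rose. Cul3 fell in both muscles (-0.28 in quadriceps, -0.30 in soleus). Of the genes for ubiquitin, its activating and conjugating enzymes and deubiquitinases, 24 of 29 were measured, of which 3 rose and 5 fell in cKO quadriceps (median -0.06) and 8 rose and 3 fell in cKO soleus (median 0.08), where among all genes 40.0% were called in quadriceps, and 13.2% rose and 9.94% fell in soleus. Under the other scalings 6 to 10 rose and 3 to 5 fell in soleus. The conjugating enzymes Ube2d1 (-0.96), Ube2e1 (-0.87) and Ube2b (-0.69) fell in quadriceps and Ube2b (-0.60) also in soleus, whereas the deubiquitinase Usp28 rose in both (0.92 and 1.36). Ube2g2 rose in both muscles (0.44 in quadriceps, 0.51 in soleus), and the unfoldase Vcp rose in soleus (0.44).

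Reported substrates of the members had 6 of 14 genes higher and 5 lower in cKO quadriceps (median 0.11) and 2 higher and 2 lower in cKO soleus (median 0.13), beside 40.0% and 23.1% of all genes called. The RNA of Ccnd1, whose protein is a substrate of Fbxo31, rose in quadriceps (0.69, SE 0.13, adjusted p = 0.00012) and was at 0.25 in soleus (adjusted p = 0.178). A link of the Ccnd1 RNA to Fbxo31 was not tested. Myod1, a substrate of Fbxo32, rose in quadriceps (1.06) and in soleus (0.71), and Eif3f was at -0.13 and 0.12 (adjusted p = 0.226 and 0.335). Irs1, the substrate shared by Fbxo40 and Cblb, was at 0.19 and 0.45 (adjusted p = 0.434 and 0.0864). Among contractile and cytoskeletal genes of the list, the slow myosin genes Myh7 (2.33) and Myl2 were higher and the fast troponin gene Tnni2 (-0.52) lower in quadriceps. In soleus Tnni2 (-0.91) and the fast myosin binding protein gene Mybpc2 (-2.94) were lower and Des, the gene of the filament protein desmin, higher (0.40). The kinase Mapk14 fell in quadriceps (-0.49). These values are of RNA, and protein was not measured.

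**Figure D4:**
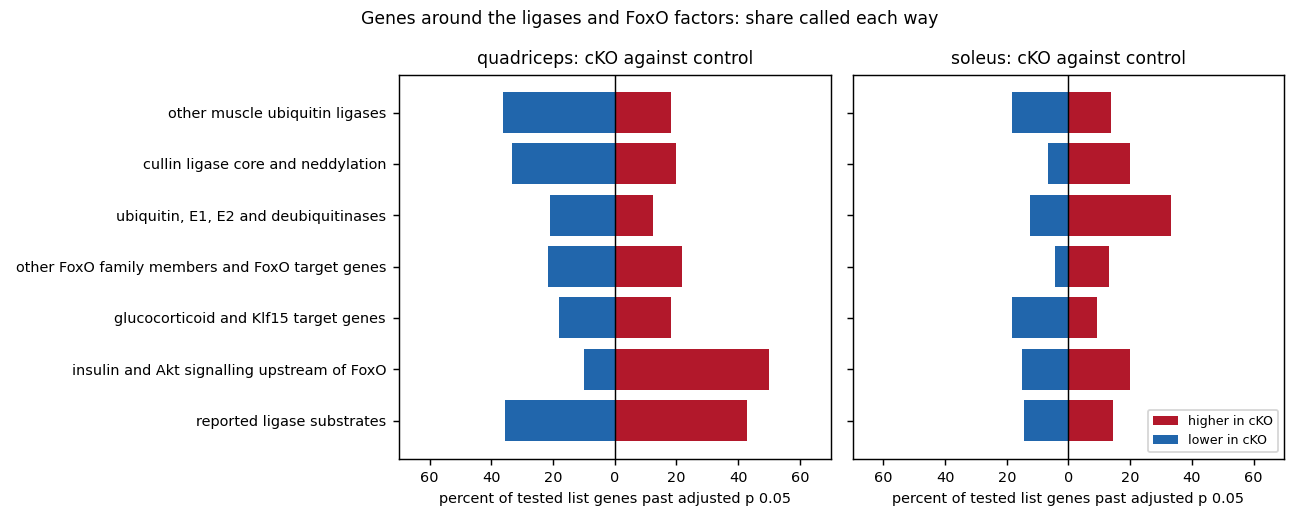
Share of the measured genes of 7 lists (rows) that were called higher (right of 0, red) or lower (left of 0, blue) in cKO than in control, as a percentage (x axis), in quadriceps (left) and soleus (right). The insulin and Akt list has 10 of 20 genes higher in quadriceps and the ubiquitin enzyme list 8 of 24 higher in soleus.

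Fibre type and other cells changed in the same arrays. The summed linear intensity of 7 slow fibre genes was 15020 to 21550 in cKO quadriceps, against 2963 to 8534 in control quadriceps, and 35990 to 36600 in cKO soleus, against 26050 to 36730 in control soleus. That of 8 fast fibre genes was 37090 to 43910 in cKO and 49190 to 53400 in control quadriceps, and 13620 to 18800 in cKO and 19430 to 31940 in control soleus. All 7 slow genes rose in quadriceps and 2 rose and 1 fell in soleus, and 4 of 8 fast genes fell in quadriceps and 7 in soleus. Macrophage markers, 7 of 8 called higher in each muscle, summed to 1179 to 1450 in cKO and 528 to 945 in control quadriceps, and to 779.8 to 1123 in cKO and 512 to 661 in control soleus. Fibroblast markers (5 of 6 higher in quadriceps, 4 in soleus) summed to 9855 to 11710 in cKO and 5608 to 9401 in control quadriceps, and to 8584 to 12220 in cKO and 7566 to 8726 in control soleus.

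Adipocyte markers rose in 3 of 5 in quadriceps and in none in soleus, with sums of 2264 to 5570 in cKO and 1348 to 3064 in control quadriceps, and of 1174 to 2346 in cKO and 1347 to 1965 in control soleus. Endothelial markers did not pass in quadriceps (1382 to 1921 in cKO, 1492 to 2650 in control) and fell in 4 of 5 in soleus (1451 to 1774 in cKO, 2000 to 3163 in control). Satellite cell markers rose in 3 of 4 in quadriceps (324 to 394 in cKO, 258 to 308 in control) and in 1 in soleus (352 to 406 in cKO, 261 to 344 in control). Of 5 Schwann cell and nerve markers 3 were measured, and 1 rose in quadriceps (1165 to 1362 in cKO, 627 to 1130 in control) and none in soleus (972 to 1297 in cKO, 875 to 1197 in control). Every marker measured was above the dim limit on at least 1 array of each group. The part of fibre type or of these cells in the changes of the ligases, the factors and the listed genes was not tested.

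The genes that ran closest to each called member over the 24 arrays, by the root mean square difference of log2 values centred on each gene's mean, give each pattern a context. For Foxo1 these were Mertk (0.22 log2 units), Fbxo30 (0.30), which is itself a member, and the amino acid transporter Slc38a2 (0.30), where Foxo1 varied by 0.50 about its own mean. Fbxo30 ran closest to Cmip (0.20), Rnf19a (0.21) and Notch2 (0.21), and Fbxo31 to Tango2 (0.25), Rilpl1 (0.26) and the muscle ligase subunit Asb11 (0.27). For Fbxo32 the nearest were Tjp1 (0.20), Cd36 (0.20) and Adgrf5 (0.21), genes known from endothelium among other places, which stood at -0.51, -0.68 and -0.64 in cKO soleus and between 0.07 and 0.20 in cKO quadriceps. Trim63 was nearest to Tmem170b (0.24), Slc7a8 (0.25) and Ttc37 (0.26), Fbxo40 to Tsc2 (0.16), Trappc10 (0.16) and Drg1 (0.17), Foxo3 to Cttn (0.15), Septin9 (0.15) and Zfp592 (0.16), and Cblb to Map3k2 (0.12), Ewsr1 (0.13) and Chd9 (0.13).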

How the data were processed

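RNA of 24 muscles was hybridised to Affymetrix arrays. The values are intensities deposited by the authors, made with Affymetrix Expression Console and RMA on build mm10, per the submitters' processing notes; their versions and settings are not given in those notes. They are on a linear scale (1.76 to 10075) and log2 was taken here. Of 35557 probe sets 21789 have 1 gene symbol (1621 several, 12147 none listed), updated through Entrez numbers (21698 matched GRCm38.p6). The brightest probe set of each of 19938 genes was used. Genes above their array's 30th percentile (3.51 to 3.72, the dim limit) on at least 6 arrays, 15999 in all, entered 1 limma model of 4 group means (R 4.3.3, limma 3.58.1, lmFit and eBayes, 20 residual degrees of freedom), with Benjamini-Hochberg adjustment over all genes, two-sided. The method was tested on simulated data. Groups came from sample titles; the labels call the samples biological replicates. The number of arrays limits precision (median SE of a change 0.10). Members and lists were chosen with earlier results of these data known. Genes named were the members, up to 4 genes of each list with the smallest p among those called in each cKO comparison, and the 3 nearest genes of each called member.

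Same-numbered quadriceps and soleus arrays of a genotype correlated in their deviations from the group means (r 0.22 to 0.45 in cKO, 0.16 to 0.31 in control, each of the 6 pairs of a genotype above 0.1) and were taken as 1 animal in blocked fits, although the labels give cKO 4 different ages. Same-numbered cKO and control arrays met this only in part (quadriceps r -0.15 to 0.17, soleus 0.04 to 0.32). Of 6 such pairs 3 in quadriceps and 4 in soleus were above 0.1. The control array of the same number correlated best for 3 of 6 cKO arrays in quadriceps and 4 of 6 in soleus. Arrays of 1 number but of different muscle and genotype, which cannot share an animal, also went together in part. Soleus cKO with quadriceps control had r 0.04 to 0.27, with 4 of 6 above 0.1 and 5 best at their own number. Quadriceps cKO with soleus control had r -0.04 to 0.28, with 1 above 0.1 and 3 best. That a number marks an animal is thus an assumption of the blocked fits. Relations within groups used 100000 permutations within genotype. Alternatives were other scalings, filters, probe set rules, array weights, blocks, floors, fits per muscle, trended eBayes and leaving out each array. Upstream windows came from RefSeq.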

Additional observations from a re-analysis of the deposited data

Results flagged for a closer look

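Fbxo30 and Foxo1 differed between the muscles in their response to the knockout, by 0.96 and 0.92 on the log2 scale, as the test of the difference of the changes showed. In cKO quadriceps the highest Fbxo31 array (8.87, quadriceps cKO 6) stood far from the other 5, with a gap of 0.63 of the range of the group. In cKO soleus the lowest Cblb array (7.06, soleus cKO 2) did so with a gap of 0.71 of the range. These 2 arrays came from 40 groups looked at, and chance alone marks about 1 in 20 such groups.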

How the results depend on the processing

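The 10 members in 5 comparisons gave 50 results and 1820 values under other settings. None changed direction among called values, 1744 kept their side of the threshold, 50 passed it anew and 26 no longer passed. For the quadriceps minus soleus difference, 2 members and 1966 genes were called. Array quality weights gave 4 members and 3570 genes, leaving out the 3 arrays of lowest weight (chosen after seeing the data) gave 4 and 3675, and leaving out each array in turn gave 1 to 4 members and 1576 to 2856 genes. Cblb and Fbxo32 were the members added by weights and by leaving out the 3 arrays. With a replicate block, animal as a random block gave 4 members and 2952 genes for this difference, and the number as a fixed term gave 4 members. Between muscles the random block gave 7 members in control (4 without it) and 4 in cKO (2 without it), and the fixed term gave 4 in cKO. Array weights also gave 4 members in cKO, and leaving out each array gave 2 to 6 in control and 2 to 3 in cKO. Between cKO and control, where equal numbers are not shown to pair samples, the fixed number term added Klf15 in quadriceps (-0.25, adjusted p = 0.00923). Scaling moved the share of called genes that were higher. It was 55.7% in quadriceps as deposited and 37.5% after scaling to the 75th percentile. For the difference it was 60.2%, against 45.6% with median centring and 48.7% with the 75th percentile. Between control muscles it was 45.4%, against 22.3% and 56.2%, and between cKO muscles 23.95% and 68.6% with these scalings. The cause of each change was not tested. The number of arrays sets the precision.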
